A study of Mus musculus with 12 samples.

Results

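The collagen and integrin genes of MMT cells were followed across an RNA interference experiment. All probes whose single annotated gene symbol has the form of a collagen chain (Col, a number, a and a number) or begins with Itga or Itgb were taken, except those for Itga6 and Itgb4. The rule found 56 probes for 55 genes, of 33012 probes and 13840 gene symbols on the array. They were 35 collagen probes for 34 genes, because Col23a1 had 2 probes, and 21 probes named Itg. Of those 21 genes, 17 encode integrin subunits, while Itgb1bp1, Itgb1bp2, Itgb3bp and Itgbl1 carry the name without encoding a subunit.

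Collagens are triple-helical proteins of the extracellular matrix. Some form fibrils, and others form the sheet-like network of basement membranes, decorate fibrils, anchor epithelia to the tissue below or span the plasma membrane. Integrins are receptors of an alpha and a beta subunit that bind collagens, laminins, fibronectin and other ligands and link them to the actin cytoskeleton. In the mammary gland the epithelium rests on a basement membrane that it contacts through integrins with the shared beta subunit Itgb1.

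The 4 groups were MMT cells transfected with an siRNA against Pea3 (siPea3, 4 arrays), with one against Erm (siErm, 3 arrays) or with a control siRNA (siCtrl, 3 arrays), and untransfected MMT cells (2 arrays). Pea3, or Etv4, and Erm, or Etv5, are related transcription factors of the ETS family. MMT is a cell line from a mouse mammary tumour, so all 12 arrays share 1 line, and all cultures were grown in DMEM with fetal calf serum. No siRNA sequence, dose or time is stated in the labels, and the replicates are biological per the labels. The siCtrl arrays enter 3 of the 4 comparisons and the siPea3 arrays 2.

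RNA was measured on single-colour arrays with chemiluminescent detection, and each value is a signal on a linear scale in the authors' arbitrary units. Detection of a probe on an array required a signal of at least 3 times its noise. Between 34.2% and 41.9% of probes were detected per array. Array 2 of siPea3 was the lowest in this share and had an upper-quartile signal of 7.47, against 10.2 to 14.4 on the other 11 arrays. The Etv4 probe gave 21.1, 20.6, 18.1 and 16.4 in siPea3 and 26.7, 45.7 and 32.4 in siErm, against 36.0, 43.2 and 31.5 in siCtrl and 40.7 and 41.8 in untransfected cells. Its siPea3 signals lay below those of all other arrays, whereas the Etv5 probe was detected on 3 arrays only, 2 of siCtrl and 1 untransfected, so it gave no check of the siErm label. Among cell type markers, 3 of the 5 luminal genes with a probe were detected, but Epcam and Cdh1 were on 0 arrays. Of 5 basal markers, Krt14 was detected on all 12 arrays and Krt5, Acta2 and Myh11 on 0, and the leukocyte markers Ptprc and Cd3e were also on 0. Of 6 fibroblast and mesenchyme markers, 4 were detected on at least 2 arrays. Of 4 endothelial markers, Cdh5 was detected on 6 arrays, Pecam1 on 2, and Tek and Kdr on 1 each.

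The summed signal of the luminal markers was 366 to 696 in siPea3 and 665 to 898 in siErm, against 764 to 1180 in siCtrl and 1685 to 1804 in untransfected cells. Krt8 carried most of this sum, and the means of Krt19 were 9.9, 17.9, 13.0 and 16.7 in the same order of groups. The fibroblast and mesenchyme sum was 4439 to 7210 in siPea3 and 6372 to 7372 in siErm, against 5652 to 9171 in siCtrl and 8175 to 8959 in untransfected cells. It was mostly Vim and Dcn. Both had lower means in siPea3 and siErm than in siCtrl, but against untransfected cells they differed in direction. In that order of groups, mean Vim was 3878, 5137, 5536 and 7139, and mean Dcn was 1728, 1786, 1905 and 1389. Krt14 gave 18.7 to 28.7 in siPea3 and 17.2 to 39.4 in siErm, against 11.6 to 20.2 in siCtrl and 13.0 to 13.7 in untransfected cells. The part of these markers in the differences given for collagens and integrins was not tested. In bulk RNA, fewer cells of a type and less RNA per cell cannot be told apart.

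Of the 56 probes, 35 were detected on at least 2 arrays and kept for testing (62.5%, against 50.7% of all probes). They were 23 collagen probes and 12 Itg probes, 9 of them for subunits. A total of 17 were detected on all 12 arrays, and 18 of the kept probes on some arrays only. The other 21 probes were not kept, 17 of them detected on 0 arrays and 4 on 1 array.

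Basement membrane chains made up 6 of the 12 collagens detected on every array. Col4a1 and Col4a2, the chains of the common type IV network, were among them, together with Col4a4, Col4a5 and Col4a6 of the more restricted type IV networks and Col18a1, a basement membrane proteoglycan whose C-terminal fragment is endostatin. Col7a1, the anchoring fibril collagen that fastens epithelia to the underlying matrix, and Col17a1, the transmembrane collagen of hemidesmosomes, were also detected on every array. The remaining 4 were Col5a1, which regulates the diameter of collagen fibrils, Col6a1 of beaded microfibrils, the network-forming Col8a1 and the fibril-associated Col16a1.

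The major fibrillar collagens of connective tissue were detected less widely. The type I chains Col1a1 and Col1a2 were detected on 6 and 7 arrays. Col3a1 was detected on 3 arrays, Col5a2 on 5, Col5a3 on 6 and Col6a2 on 2. Col9a3, a chain of a fibril-associated collagen known from cartilage, was detected on 9 arrays, Col2a1, the main cartilage collagen, on 3, and Col11a2, Col4a3 and 1 Col23a1 probe on 2 each. Col10a1, Col11a1, Col13a1, Col14a1, Col19a1, Col25a1, Col6a6, Col9a1, Col9a2 and the second Col23a1 probe were detected on 0 arrays, and Col15a1 and Col26a1 on 1. A probe that is not detected shows only that its signal was within reach of the noise on this array.

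Itgb1, the beta subunit shared by most receptors for collagen, laminin and fibronectin, was detected on every array. Of its alpha partners, the laminin-binding Itga7 was detected on all 12 arrays and Itga3, another laminin-binding subunit, on 9. The collagen-binding Itga2 was detected on 5 arrays, and the fibronectin-binding Itga5 and Itga8 on 2 each. Itga11, a collagen-binding subunit, was detected on 1 array, and Itga4 and Itga9 on 0. Itgb7, the beta subunit that pairs with Itga4 or Itgae on lymphocytes, was detected on every array, although Itga4 and Itgae were both detected on 0. The leukocyte subunit Itgb2 was detected on 3 arrays, its partner Itgam on 1 and its partner Itgal on 0. Itgb5, which pairs with the alpha v subunit, was detected on 5 arrays, and Itgb6, Itgb2l and the subunit-like Itgbl1 on 0. Among the genes that are not subunits, Itgb1bp1, which binds the cytoplasmic tail of the beta 1 subunit, and Itgb3bp, a centromere protein, were detected on all 12 arrays, and Itgb1bp2, a muscle protein also called melusin, on 2.

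**Figure D1:**
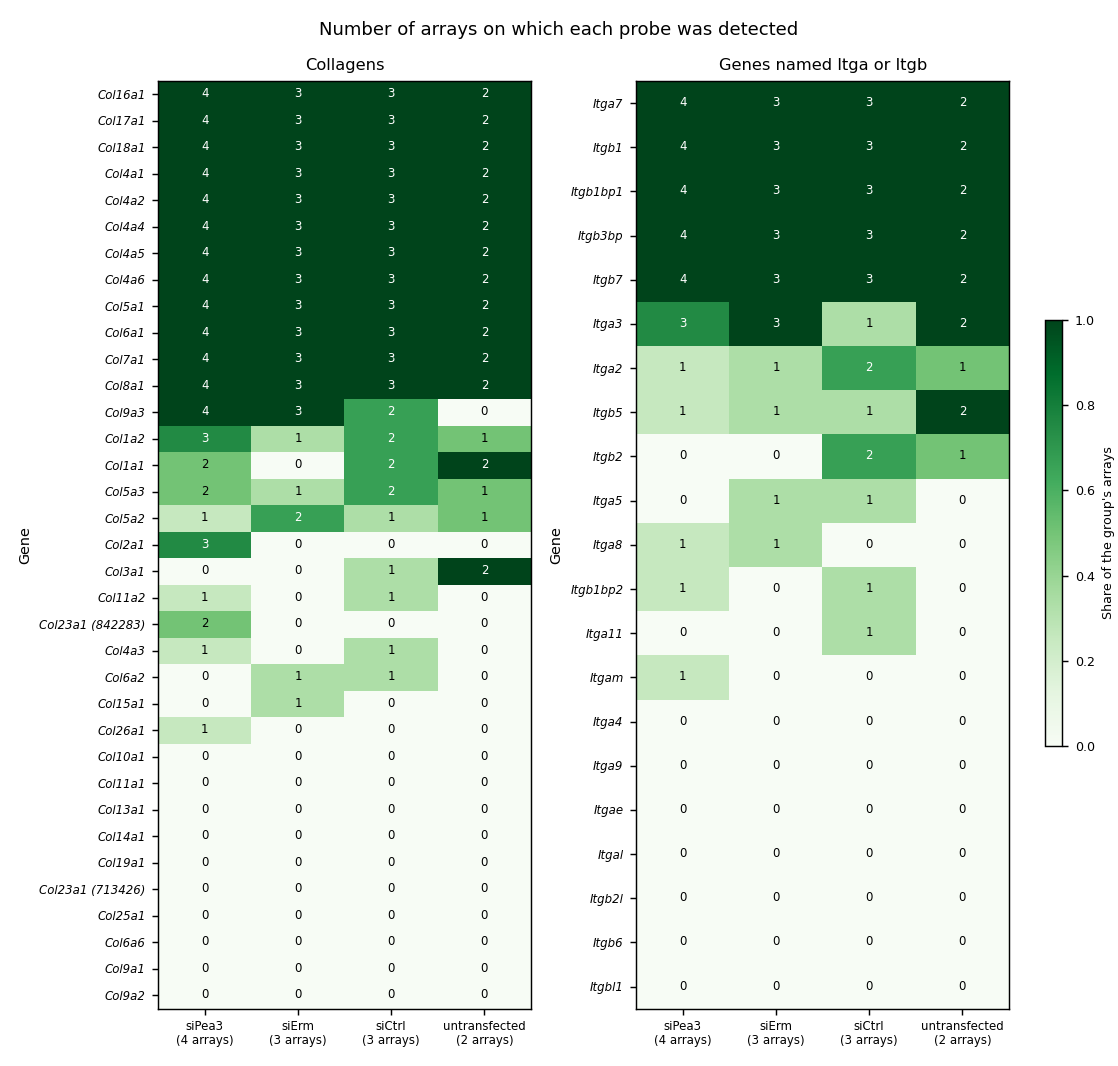
Number of arrays of each group (columns) on which each of the 56 collagen and Itg probes (rows) was detected, printed in each cell and shaded by its share of the arrays of the group. Col18a1, every type IV chain but Col4a3, Itgb1, Itgb7 and Itga7 are detected throughout, whereas 17 probes are detected on no array.

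For the first comparison, siPea3 with siCtrl, the question was which collagen and integrin transcripts differed after knockdown of Pea3. No collagen or integrin probe passed the test. With limma's test and Benjamini-Hochberg adjustment over all 16724 tested probes, 0 of the 35 kept probes were called at an adjusted p under 0.05, against 0.0359% of all probes (6 probes). At an unadjusted p under 0.05 there were 2 of 35, against 13.4% of all probes. They were Col2a1, higher in siPea3 (2.78% of all probes), which passed the detection filter only through its siPea3 arrays, and Col7a1, lower (10.6% of all probes). Among the 17 members detected on all arrays, the groups did not overlap for the epithelial anchoring collagens Col7a1 and Col17a1, both with lower signals in siPea3. Of the 9160 probes detected on all arrays, 20.1% did not overlap and 18% were lower without overlap, so 2 of 17 is no more than the background.

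Promoter sequence is shown for Col7a1, Col17a1 and Itgb1, the members detected on all arrays with the smallest unadjusted p in this comparison, so the choice rests on these values. Each is the 250 bases before the annotated start of the gene, from RefSeq on GRCm38.p6, written 5′ to 3′ on the strand of the gene. The windows are chr9:108953336-108953585 on the plus strand for Col7a1, chr19:47692043-47692292 on the minus strand for Col17a1 and chr8:128685404-128685653 on the plus strand for Itgb1. Capitals mark GGAA, the core that ETS factors bind, or TTCC where it lies on the other strand.
Col7a1: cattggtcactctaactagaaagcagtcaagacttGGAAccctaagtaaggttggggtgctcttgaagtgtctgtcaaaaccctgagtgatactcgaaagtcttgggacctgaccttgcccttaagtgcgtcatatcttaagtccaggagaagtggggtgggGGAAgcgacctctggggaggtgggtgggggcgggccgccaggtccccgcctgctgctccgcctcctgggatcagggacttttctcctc
Col17a1: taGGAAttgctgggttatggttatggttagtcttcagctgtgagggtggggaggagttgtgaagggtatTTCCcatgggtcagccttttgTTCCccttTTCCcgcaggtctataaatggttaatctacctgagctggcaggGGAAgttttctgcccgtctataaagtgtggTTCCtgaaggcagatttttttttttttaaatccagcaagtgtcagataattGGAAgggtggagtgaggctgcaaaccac
Itgb1: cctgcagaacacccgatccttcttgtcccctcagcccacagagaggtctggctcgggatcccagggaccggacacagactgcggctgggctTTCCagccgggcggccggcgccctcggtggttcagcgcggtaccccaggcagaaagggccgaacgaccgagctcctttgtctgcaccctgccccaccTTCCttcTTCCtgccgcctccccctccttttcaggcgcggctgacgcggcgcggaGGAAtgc
These windows hold 2, 7 and 4 matches to GGAA on both strands. The longer AGGAAG, which contains GGAA, has 0 matches in Col7a1, 0 in Col17a1 and 2 in Itgb1, both read as CTTCCT on the printed strand. GGAA is common: 93.4% of 32851 such windows hold at least 1, with a median of 3, and 33.4% hold 4 or more. AGGAAG is in 29.5%. A match is a run of letters and does not show binding.

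Col7a1 signals were 23.5, 29.7, 38.5 and 37.2 in siPea3 and 41.3, 119 and 56.8 in siErm, against 40.8, 98.4 and 68.0 in siCtrl and 59.9 and 40.4 in untransfected cells. All 4 siPea3 arrays lay below the other 8 arrays, but by a small margin (at most 38.5, against at least 40.4). The log2 change of siPea3 against siCtrl was -1.04 ± 0.41 (SE, adjusted p = 0.320 by limma), and Col7a1 was lower in siPea3 in all 3 same-numbered pairs of arrays.

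Col17a1 signals were 2.97, 4.53, 3.74 and 4.22 in siPea3 and 4.30, 10.7 and 6.37 in siErm, against 5.14, 10.8 and 5.09 in siCtrl and 3.10 and 4.53 in untransfected cells. The siPea3 and siCtrl arrays did not overlap, but the untransfected arrays lay within the siPea3 range. The log2 change against siCtrl was -0.78 ± 0.37 (SE, adjusted p = 0.386 by limma).

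Itgb1 gave 405, 309, 517 and 433 in siPea3 and 586, 718 and 530 in siErm, against 583, 766 and 501 in siCtrl and 1022 and 753 in untransfected cells. Array 3 of siPea3 exceeded the lowest siCtrl array, so the groups overlapped by 1 array each. The log2 change against siCtrl was -0.57 ± 0.26 (SE, adjusted p = 0.374 by limma). These 3 differences lay in the direction of the bulk of the array, since the median log2 change over all tested probes was -0.24. After quantile normalization they were -0.69 for Col7a1, -0.53 for Col17a1 and -0.31 for Itgb1, and after median scaling of the detected probes -0.73, -0.47 and -0.26.

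Among the other collagens with the smallest p, Col2a1 had signals of 2.16, 3.10, 2.11 and 3.07 in siPea3, where 3 arrays detected it, against 1.09, 0.70 and 0.57 in siCtrl, where 0 did. The signals did not overlap, with an adjusted p of 0.261 by limma (log2 change 1.76 ± 0.55, SE), but a probe kept only through the group where it is high had to differ, so neither value supports a difference. Its signals in siErm, 2.32, 0.63 and 2.76, and in untransfected cells, 2.31 and 0.63, were not detected on any array. Col4a5 gave 12.2, 3.99, 8.59 and 8.59 in siPea3, against 12.9, 12.6 and 10.5 in siCtrl, with a log2 change of -0.62 ± 0.36 (SE, adjusted p = 0.460 by limma). Its lowest value was on array 2 of siPea3, the array with the lowest signals, and without that array the log2 change of Col4a5 was -0.30. Without the same array, those of Col7a1, Col17a1 and Itgb1 were -1.01, -0.86 and -0.43. Without array 2 of siCtrl, on which both anchoring collagens were highest in that group, they were -0.74 for Col7a1 and -0.42 for Col17a1.

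The other 3 integrins with the smallest p stood further from the threshold. Itgb7 gave 70.5, 28.8, 44.4 and 49.7 in siPea3, against 50.8, 106 and 61.6 in siCtrl, with overlap and a log2 change of -0.59 ± 0.41 (SE, adjusted p = 0.521 by limma). Itga2 had signals of 0.95, 0.88, 0.49 and 2.50 in siPea3, detected on 1 array, against 5.32, 0.61 and 2.25 in siCtrl (log2 change -0.95 ± 0.75, SE, adjusted p = 0.581 by limma). Itgb2 was not detected on any siPea3 array, against 2 of the 3 siCtrl arrays, and its signals overlapped (log2 change -0.79 ± 0.65, SE, adjusted p = 0.598 by limma). It passed the filter only with siCtrl arrays, where it is high, so its estimate does not support a difference. The estimates of these 3 genes moved with single arrays. As 1 array at a time was left out, they ranged over -0.81 to -0.28 for Itgb7 (weakest without array 2 of siCtrl), -1.78 to -0.22 for Itga2 (strongest without array 2 and weakest without array 1 of siCtrl) and -1.40 to -0.36 for Itgb2 (strongest without array 3 and weakest without array 2 of siCtrl).

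The groups did not overlap for 3 of the 35 probes, Col2a1 higher and Col7a1 and Col17a1 lower, against 15.3% of all probes, of which 2.84% were higher and 12.4% lower. The median log2 change was 0.10 over the 23 collagen probes and -0.38 over the 12 Itg probes, beside -0.24 over all probes. Over the probes detected on all arrays the medians were -0.20 for 12 collagens and -0.11 for 5 Itg genes, beside -0.30 for 9160 probes. After quantile normalization the median over all probes was -0.02, and those over collagens and Itg genes were 0.26 and -0.28. In the 3 same-numbered pairs of arrays, 3 collagens were higher and 5 lower in every pair, and 2 Itg genes were higher and 1 lower. Over all probes, 7.9% were higher and 29% lower in every pair.

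The type IV chains showed no separation of the groups. Col4a1 gave 405, 176, 193 and 184 in siPea3, against 364, 310 and 167 in siCtrl. Col4a2 gave 83.0, 51.7, 71.3 and 71.2 in siPea3, against 79.5, 55.0 and 79.9 in siCtrl, so the groups covered nearly the same range. Col4a6 ranged over 22.2 to 37.3 in siPea3 and 20.6 to 42.3 in siCtrl, and Col18a1 over 160 to 254 in siPea3 and 117 to 230 in siCtrl. Col6a1 varied widely within the groups, with 33.9, 9.09, 12.9 and 8.69 in siPea3, against 56.6, 12.1 and 4.99 in siCtrl. Col5a1 ranged over 114 to 250 in siPea3 and 128 to 236 in siCtrl, Col8a1 over 29.3 to 53.7 and 31.6 to 60.5, and Col16a1 over 78.7 to 142 and 70.7 to 99.0 in the same order of groups. The laminin-binding Itga7 gave 162, 38.5, 71.3 and 82.4 in siPea3, against 132, 51.1 and 87.5 in siCtrl.

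**Figure D2:**
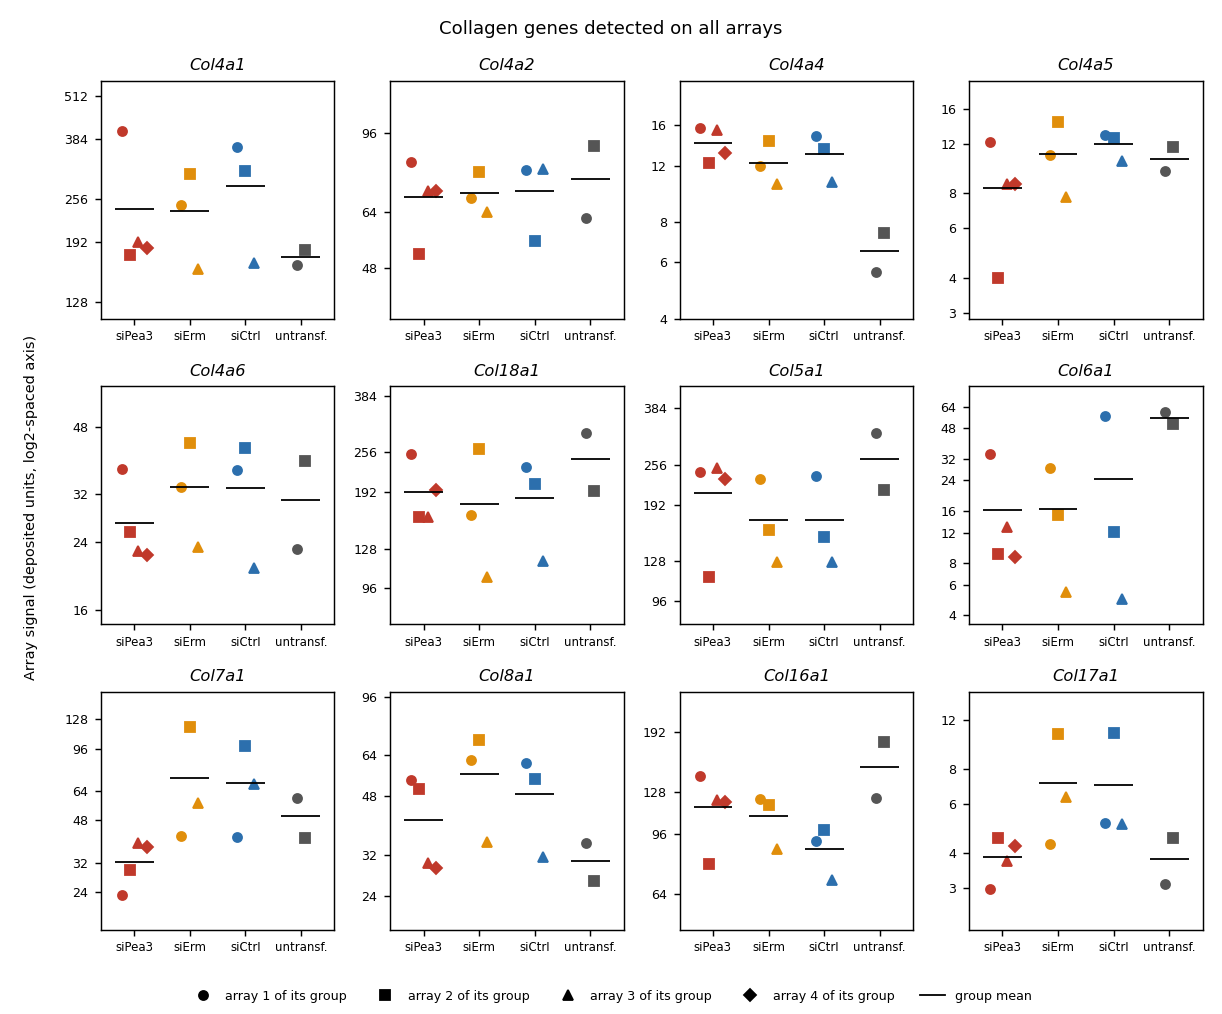
Signals of the 12 collagen genes detected on all arrays, in deposited units on a log2-spaced axis, with 1 point per array shaped by its replicate number and a line at the arithmetic mean of each group. Col7a1 lies lower on all 4 siPea3 arrays than on the other 8, by a small margin. Col4a4 is higher on the 10 transfected arrays (10.5 to 15.7) than on the 2 untransfected ones (5.59 and 7.40), and most other genes overlap between groups.

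For siErm against siCtrl, no difference in collagens or integrins was detectable. Whether Erm was knocked down could not be checked, since the Etv5 probe was not detected on any siErm array. By limma 0 of 35 probes were called, against 0% of all probes, and 0 of 35 had an unadjusted p under 0.05, against 2.03% of all probes. The groups overlapped for every one of the 35, against 5.47% of all probes without overlap. In all 3 same-numbered pairs, 4 collagens were higher and 3 lower in siErm, and 0 Itg genes were higher and 2 lower, against 9.41% of all probes higher and 20.3% lower. Median log2 changes were 0.01 over collagens and -0.08 over Itg genes, beside -0.05 over all probes.

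The 4 collagens with the smallest p had an adjusted p of 1.00 by limma. Col16a1, the only one of them detected on all arrays, gave 122, 117 and 86.7 in siErm, against 91.5, 99.0 and 70.7 in siCtrl, with overlapping groups (log2 change 0.31 ± 0.29, SE). It was higher in siErm in each of the 3 same-numbered pairs, by 0.41, 0.24 and 0.29 on the log2 scale. Col1a2 had a log2 change of -0.63 ± 0.41 (SE), with 1.45, 0.73 and 1.30 in siErm and 1.87, 1.31 and 2.07 in siCtrl. Col5a3 had one of -0.73 ± 0.60 (SE), with 0.90, 2.18 and 0.62 in siErm and 2.06, 2.55 and 1.05 in siCtrl. Col2a1 was not detected on any array of either group, so its estimate of 1.07 ± 0.59 (SE, log2) is not given as a fold. As 1 array at a time was left out, Col1a2 ranged over -0.82 to -0.32 (weakest without array 2 of siErm), Col5a3 over -1.24 to -0.34 (weakest without array 3 of siErm), and Col16a1 was 0.17 without array 3 of siCtrl.

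The 4 Itg genes with the smallest p also had an adjusted p of 1.00 by limma. Itgb7 gave 36.3, 78.5 and 56.1 in siErm, against 50.8, 106 and 61.6 in siCtrl (log2 change -0.35 ± 0.43, SE), lower in each of the 3 pairs. Itga3 gave 10.2, 7.31 and 7.67 in siErm, against 11.9, 2.60 and 4.63 in siCtrl (log2 change 0.67 ± 0.52, SE), with detection on 3 siErm arrays and 1 siCtrl array. Itgb2 and Itgb1bp2 were undetected on every siErm array, with overlapping signals (log2 changes -0.90 ± 0.70 and -0.32 ± 0.48, SE), and the sign of Itgb1bp2 turned without array 2 of siErm or of siCtrl. Both genes passed the filter only with siCtrl arrays, so neither estimate supports a difference. As 1 array at a time was left out, the log2 change ranged over 0.16 (without array 2 of siCtrl) to 1.26 (without array 1 of siCtrl) for Itga3, over -0.62 to -0.04 for Itgb7 and over -1.55 to -0.47 for Itgb2.

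Some members varied together with the replicate number in siErm and siCtrl, as did many other probes of the array. Col7a1 and Col17a1 were highest on array 2 of both groups. Itga5 was highest on array 1 of both, with 24.9 in siErm and 16.6 in siCtrl, against 1.85 to 3.70 on the other 4 arrays. It was detected on 1 siErm and 1 siCtrl array only. As the filter kept it only through high arrays of these groups, its pattern does not support a shared variation. Itgb5 was likewise highest on array 1 of both, with 11.7 in siErm and 5.57 in siCtrl. The same number was highest in both groups for 20 of the 35 probes (57.1%), against 54.5% of all probes. Among probes detected on all arrays it was so for 9 of 17 members (52.9%), against 65.2% of 9160 probes. The members therefore did not stand out from the array.

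**Figure D3:**
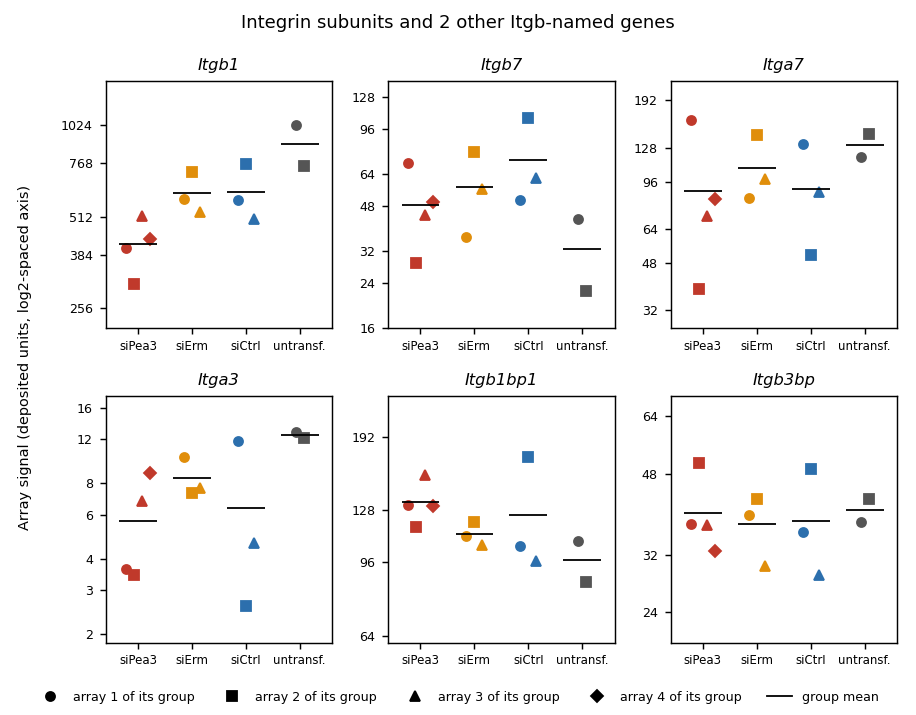
Signals of the 5 Itg genes detected on all arrays and of Itga3, in deposited units on a log2-spaced axis, with 1 point per array shaped by its replicate number and a line at the arithmetic mean of each group. Itgb1 lies at 309 to 517 in siPea3, against 501 to 766 in siCtrl and 753 and 1022 in untransfected cells, and Itga3 spreads widely within siPea3 and siCtrl.

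The direct comparison of siPea3 with siErm gave 0 called probes of 35 by limma, against 0.00598% of all probes (1 probe), and 1 of 35 at an unadjusted p under 0.05, against 10.3% of all probes. That one was Col7a1, with a log2 change of -1.05 ± 0.41 (SE, adjusted p = 0.439 by limma) and no overlap. Itgb1 did not overlap either, with 309 to 517 in siPea3 and 530 to 718 in siErm (log2 change -0.57 ± 0.26, SE, adjusted p = 0.489 by limma). These were 2 of 35 probes without overlap, against 13.7% of all probes. Without array 2 of siErm the log2 change of Col7a1 was -0.62. As siPea3 enters both this comparison and that with siCtrl, the low siPea3 signals count in both.

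Col17a1 had a log2 change of -0.80 ± 0.37 (SE) against siErm and an adjusted p of 0.494 by limma, with array 2 of siPea3 above array 1 of siErm, and it was -0.46 without array 2 of siErm. Col1a2 gave 2.29, 3.07, 1.12 and 1.69 in siPea3, against 1.45, 0.73 and 1.30 in siErm (log2 change 0.78 ± 0.38, SE, adjusted p = 0.510 by limma). Col5a2, the second chain of type V collagen, gave 2.77, 1.01, 0.44 and 0.61 in siPea3, against 3.50, 2.76 and 1.28 in siErm (log2 change -1.31 ± 0.69, SE, adjusted p = 0.530 by limma). Without array 2 of siErm, on which Col1a2 was lowest, its log2 change was 0.48. Among Itg genes, the log2 changes were -0.66 ± 0.49 for Itga3 (SE, adjusted p = 0.637 by limma) and -0.83 ± 0.75 for Itga2 (SE, adjusted p = 0.697 by limma), the Itga2 value ranging over -1.27 to -0.44 as 1 array at a time was left out. Itgb1bp1 gave 132, 117, 156 and 131 in siPea3, against 111, 120 and 106 in siErm (log2 change 0.25 ± 0.25, SE, adjusted p = 0.720 by limma). Median log2 changes were 0.07 over collagens and -0.32 over Itg genes, beside -0.20 over all probes, or 0.30 and -0.16 beside 0.00 after quantile normalization.

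The comparison of siCtrl with untransfected cells sets transfected beside untransfected cultures. Their same-numbered arrays did not deviate together (correlations 0.06 and 0.06), and the part of the transfection procedure itself in the differences was not tested. The comparison gave 0 called probes of 35 by limma, against 1.02% of all probes (171 probes), and 5 of 35 at an unadjusted p under 0.05, against 11.4% of all probes. The 5 were 3 higher and 2 lower in siCtrl, against 6.27% and 5.13% of all probes. The 2 collagens nearest the threshold, Col9a3 and Col4a4, had higher signals in siCtrl, and each was called under 1 other way of processing. The groups did not overlap for 8 probes, 5 higher and 3 lower in siCtrl, against 26.7% of all probes, of which 12.6% were higher and 14.2% lower. Col17a1 was among the higher ones, with 5.09 to 10.8 in siCtrl, against 3.10 and 4.53 in untransfected cells. With 2 untransfected arrays, non-overlap is common. Among these probes, Col9a3 and Itgb1bp2 passed the detection filter only through transfected arrays, and Col3a1 only with untransfected ones. In each case these were the arrays with the higher signals, so their separation does not support a difference.

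Col9a3 gave 2.02, 3.27 and 3.18 in siCtrl, against 0.85 and 0.68 in untransfected cells, where it was not detected. The log2 change was 1.86 ± 0.43 (SE, adjusted p = 0.0795 by limma), a fitted estimate and not a bound, since undetected signals are limited by the noise. A filter that keeps probes detected on every array of at least 1 group brought the adjusted p to 0.0446. Col9a3 was also 3.10, 6.25, 4.80 and 2.87 in siPea3 and 2.28, 4.56 and 4.43 in siErm, so all 10 transfected arrays lay above both untransfected ones. Both filters kept Col9a3 only through transfected arrays, where it is high. Neither its adjusted p values nor this separation therefore supports a difference.

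Col4a4, a chain of the type IV network known from the kidney glomerulus, gave 14.9, 13.5 and 10.7 in siCtrl, against 5.59 and 7.40 in untransfected cells. The log2 change was 1.00 ± 0.28 (SE, adjusted p = 0.151 by limma), and after quantile normalization it was 1.10 with an adjusted p of 0.0471. Its signals of 15.7, 12.2, 15.5 and 13.2 in siPea3 and 11.9, 14.3 and 10.5 in siErm also lay above both untransfected arrays. The common chains Col4a1 and Col4a2 did not separate transfected from untransfected cells, with 165 and 182 for Col4a1 and 62.1 and 89.9 for Col4a2 in untransfected cells.

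Col3a1 gave 2.58, 0.85 and 1.09 in siCtrl, against 3.87 and 3.39 in untransfected cells (log2 change -1.44 ± 0.51, SE, adjusted p = 0.300 by limma). It was detected on both untransfected arrays and 1 siCtrl array, so it passed the filter only with the group where it is high. Col16a1 was 91.5, 99.0 and 70.7 in siCtrl, against 123 and 179 in untransfected cells (log2 change -0.78 ± 0.33, SE, adjusted p = 0.396 by limma). Without array 2 of the untransfected cells the Col16a1 value was -0.51. Neither gene overlapped, but the siPea3 arrays of Col16a1 reached 142 and so overlapped with the untransfected ones. Col6a1 gave 56.6, 12.1 and 4.99 in siCtrl, against 59.7 and 50.9 in untransfected cells, and array 1 of siCtrl lay within the untransfected range.

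Among Itg genes, Itgb7 gave 50.8, 106 and 61.6 in siCtrl, against 42.6 and 22.4 in untransfected cells, without overlap (log2 change 1.16 ± 0.48, SE, adjusted p = 0.392 by limma). Itga3 gave 11.9, 2.60 and 4.63 in siCtrl, against 12.8 and 12.1 in untransfected cells (log2 change -1.25 ± 0.58, SE, adjusted p = 0.453 by limma). Itgb1 was 583, 766 and 501 in siCtrl, against 1022 and 753 in untransfected cells, with array 2 of siCtrl inside the untransfected range (log2 change -0.53 ± 0.31, SE, adjusted p = 0.545 by limma). Itgb1bp2 was detected on 1 siCtrl array, against 0 untransfected ones (log2 change 0.96 ± 0.53, SE, adjusted p = 0.523 by limma). Leaving out 1 array brought these values to 0.70 for Itgb7 (array 2 of untransfected cells), -0.75 for Itga3 (array 2 of siCtrl), -0.31 for Itgb1 (array 1 of untransfected cells) and 0.52 for Itgb1bp2 (array 2 of siCtrl). Itgb5 gave 5.57, 0.45 and 2.94 in siCtrl, against 16.1 and 2.40 in untransfected cells, with wide spread within both groups.

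Over all 10 transfected arrays, 4 of the 35 probes lay wholly on 1 side of both untransfected arrays, against 12.4% of all probes. Col4a4 and Col9a3 were higher on the transfected arrays (4.8% of all probes), and Col3a1 and Itga3 lower (7.56% of all probes). Col3a1 was at most 2.68 on transfected arrays, against at least 3.39 on untransfected ones. As Col3a1 was kept only with untransfected arrays and Col9a3 only through transfected ones, the separations of these genes do not support a difference. Itga3 was 2.60 to 11.9 on transfected arrays, against 12.1 and 12.8, so its margin was small. Median log2 changes of siCtrl against untransfected cells were 0.18 over collagens and -0.14 over Itg genes, beside -0.06 over all probes.

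The kept members not yet given by array overlapped between siPea3 and siCtrl and between siErm and siCtrl. Itgb3bp ranged over 32.7 to 50.7 in siPea3 and 30.3 to 42.4 in siErm, against 28.9 to 49.1 in siCtrl and 37.7 to 42.3 in untransfected cells, a narrow range throughout. Col1a1 ranged over 0.64 to 4.60 in siPea3 and 0.76 to 3.95 in siErm, against 1.09 to 5.0 in siCtrl and 2.19 to 3.66 in untransfected cells. Col4a3, of the same restricted type IV network as Col4a4, was detected on 1 siPea3 and 1 siCtrl array and ranged over 0.86 to 5.49 in siPea3, against 0.59 to 2.43 in siCtrl. Col6a2, which assembles with Col6a1, was at its highest on array 1 of siPea3, siErm and siCtrl, with 4.08, 4.20 and 6.09, as was Col6a1. The kept Col23a1 probe, for a transmembrane collagen, gave 3.97, 0.88, 4.69 and 1.42 in siPea3, against 0.92 to 2.28 in siCtrl. It was detected on 2 siPea3 arrays only and so passed the filter only through siPea3. Its high values there therefore do not support a difference. Itga8 stayed at or below 1.55 on every array.

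The precision of the arrays limits what these comparisons can show. The 95% interval of the log2 change included 0 for 33 of the 35 probes in siPea3 against siCtrl and for all 35 in siErm against siCtrl. It lay wholly between -1 and 1 for 7 and 11 probes in those comparisons, for 8 in siPea3 against siErm and for 3 in siCtrl against untransfected cells. For the remaining members a change of 2-fold in at least 1 direction lay within the interval.

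**Figure D4:**
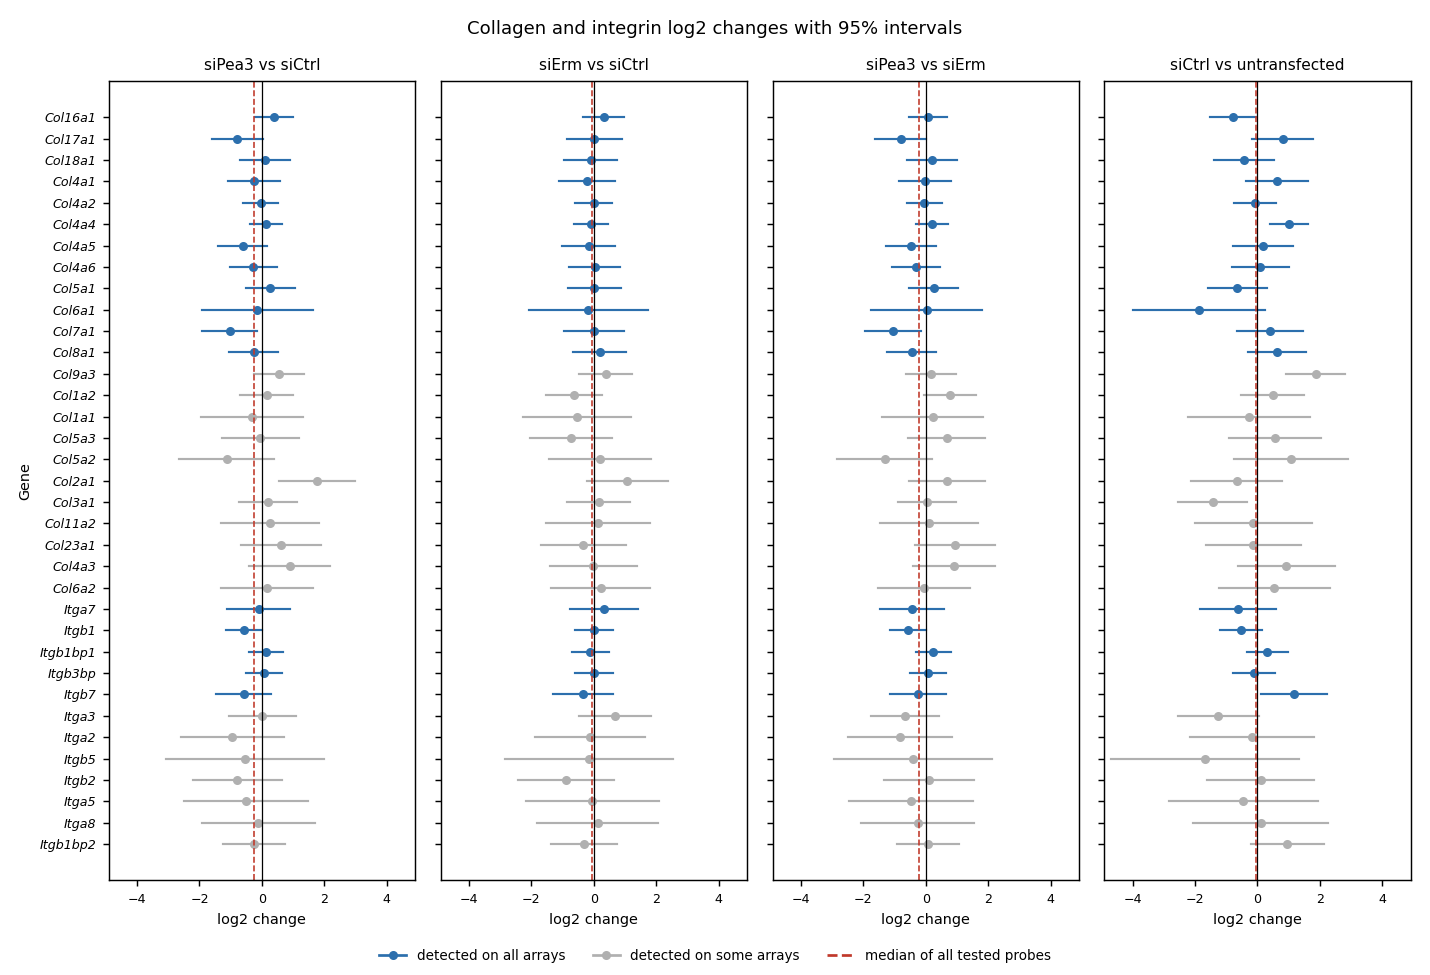
Log2 changes of the 35 kept collagen and Itg probes in the 4 comparisons, with 95% intervals from limma as bars and a dashed line at the median of all tested probes. No probe passes an adjusted p of 0.05, and most intervals reach past 1 or -1.

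The genes that process collagens, connect integrins to the cytoskeleton or serve as integrin ligands were read beside them from 3 lists. Of these genes, 18 for collagen processing, 13 of the integrin adhesion complex and 12 ligands were tested, and 0 of each list were called in any comparison by limma. At an unadjusted p under 0.05, siPea3 against siCtrl had 3 probes lower for processing, 4 lower for the adhesion complex and 1 higher among ligands, and siErm against siCtrl had 0 in each list. These are counts of 19, 13 and 12 tested probes, beside 10.6% of all probes lower and 2.78% higher in siPea3 against siCtrl. In siPea3 against siErm, 2 were lower in each of the 3 lists, beside 7.98% of all probes. In siCtrl against untransfected cells, 1 was higher and 1 lower for processing, 1 higher for the adhesion complex and 3 lower among ligands, beside 6.27% of all probes higher and 5.13% lower.

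Pcolce2, an enhancer of the protease that trims the C-terminal propeptide of fibrillar procollagens, had the smallest p of the processing list. It gave 26.1, 24.9, 25.4 and 26.5 in siPea3 and 57.6, 61.7 and 38.5 in siErm, against 61.2, 82.8 and 52.7 in siCtrl and 194 and 132 in untransfected cells. The siPea3 arrays lay below all others and the untransfected ones above. The log2 changes were -1.32 ± 0.26 for siPea3 against siCtrl (SE, adjusted p = 0.119 by limma) and -1.31 ± 0.31 for siCtrl against untransfected cells (SE, adjusted p = 0.0832 by limma). With an intensity trend in the fit the adjusted p values were 0.0436 and 0.0360, so both would be called.

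Fermt2, or kindlin-2, which binds integrin beta tails and activates the receptor, gave 48.7, 24.0, 29.7 and 24.3 in siPea3, against 71.2, 71.5 and 49.2 in siCtrl. The groups did not overlap by a small margin (log2 change -1.06 ± 0.31, SE, adjusted p = 0.239 by limma). After quantile normalization the log2 change of Fermt2 was -0.74. Parvb and Vcl, with the next smallest p of that list, had low signals, and their groups overlapped. Parvb gave 2.11, 0.98, 0.75 and 0.69 in siPea3, against 3.30, 6.39 and 1.88 in siCtrl. Vcl gave 2.31, 1.41, 4.37 and 1.47 in siPea3, against 5.45, 7.10 and 3.74 in siCtrl. Tnc, or tenascin-C, a matrix glycoprotein bound by several integrins, gave 477, 483 and 262 in siCtrl, against 3257 and 1157 in untransfected cells (log2 change -2.31 ± 0.50, SE, adjusted p = 0.0617 by limma). Fn1, fibronectin, gave 326, 261 and 160 in siCtrl, against 1907 and 373 in untransfected cells (log2 change -1.82 ± 0.66, SE, adjusted p = 0.318 by limma), and without array 1 of the untransfected cells the log2 change was -0.64. For Tnc the log2 change was -1.56 without array 1 of the untransfected cells (adjusted p = 0.381 by limma) and -3.05 without array 2 of the untransfected cells (adjusted p = 0.0237 by limma). Without that array 2, the adjusted p of Fn1 was 0.0431 by limma. Vcam1, a ligand of integrins with the alpha 4 subunit, gave 28.4, 13.3, 34.2 and 27.0 in siPea3, against 13.9, 16.3 and 9.83 in siCtrl, with array 2 of siPea3 inside the siCtrl range (log2 change 0.90 ± 0.34, SE, adjusted p = 0.317 by limma).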

How the data were processed

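RNA from 12 MMT cultures was amplified by reverse transcription and in vitro transcription, labelled with digoxigenin and read by chemiluminescence, per the labels. Intensity was deposited as an assay normalized signal, linear in scale, per the file headers. The ratio deposited beside it, a coefficient of variation, was read as noise over signal, since 99.97% of measurements with a ratio over 1 carried the low-signal mark in the deposited status code. No source used here states the software, the background correction or any scaling between arrays. The treatment label of the untransfected arrays also names siRNA transfection, and groups were taken from the titles.

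Signals were taken to log2 as deposited, without the failed measurements (145 to 438 per array). Probes detected on at least 2 arrays were kept, 16726 in all, of which 16724 could be tested. Gene names came from the platform annotation, with a single symbol for 14411 probes, more than 1 for 247 and no symbol for 18354. The fit used limma 3.58.1 under R 4.3.3 (1 coefficient per group, all 12 arrays, 8 residual and 3.06 prior degrees of freedom), with Benjamini-Hochberg adjustment over all tested probes and a threshold of 0.05. Where a group had no array with detection, no fold is given, and the log2 change is a fitted estimate and not a bound. Named are, in each comparison, all called members and otherwise the 4 collagen and 4 Itg probes with the smallest unadjusted p, further members by their signals only, and up to 3 genes of each pathway list. The members and lists were chosen with earlier results of these data known. Alternatives were quantile normalization, median scaling, no filter or a stricter one on dim probes, an intensity trend, fits of 2 groups alone, the replicate number as a block and each array left out in turn. The fit was tested on simulated data with 200 changed probes. Of simulated log2 changes of 1, 0% were recovered in each of the 4 comparisons. Of changes of 2, the share ran from 45.5% (siCtrl against untransfected cells) to 67.5% (siPea3 against siErm). A count of 0 called members therefore says little about changes of 2-fold. Figures were drawn with matplotlib 3.10.9.

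Same-numbered arrays deviated together over 9160 probes in siPea3 and siCtrl (correlations 0.32, 0.48 and 0.41) and in siErm and siCtrl (0.39, 0.33 and 0.50), so the numbers were taken to pair these groups. The pairing enters only the counts of same-numbered pairs and the alternative fit with the replicate number as a block. The main fit ignores it, so the SEs, adjusted p values and intervals given are unpaired. The correlations of siPea3 with siErm were -0.01, 0.10 and 0.36, and those of siCtrl with untransfected cells 0.06 and 0.06, and these were not taken as pairs. Array 4 of siPea3 has no same-numbered partner and adds nothing to a fit with the replicate number as a block. Its deviations nevertheless correlated with those of array 3 of siCtrl (0.64) and array 3 of siErm (0.41), and the source of this was not tested.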

Additional observations from a re-analysis of the deposited data

Results flagged for a closer look

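Of the 35 kept probes, 3 had 1 siPea3 array far from the other 3, by the gap to the nearest array divided by the range of the 4. Chance gives such a gap in about 1 in 20 groups. Col4a1 stood apart on array 1, with 405 and a nearest value of 193 (gap over range 0.892). Col5a1 stood apart on array 2, with 114 and a nearest value of 230 (gap over range 0.896), on the array with the lowest signals. Itga8 stood apart on array 4, with 0.12 and a nearest value of 1.00 (gap over range 0.837), but it was detected on 2 arrays in all.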

How the results depend on the processing

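The count of called collagen and integrin probes was 0 in 51 of 53 alternative fits over the 4 comparisons. The other 2 concerned siCtrl against untransfected cells, with 1 probe called after quantile normalization (Col4a4) and 1 with the filter for detection on every array of a group (Col9a3). Leaving out each array in turn gave 0 in all 4 comparisons, and the replicate block also gave 0 in all 4. Over all probes, the calls in siPea3 against siCtrl were 6 as reported, 0 with the replicate block and 0 to 43 over all alternatives. In siCtrl against untransfected cells they were 171 as reported, 100 with the block and 0 (those 2 groups fitted alone) to 336, and in siPea3 against siErm 1 as reported and 0 to 14. Tnc and Pcolce2 in siCtrl against untransfected cells were called after quantile normalization (adjusted p = 0.0425 and 0.0179 by limma). Of 51 log2 changes of members and listed pathway genes, 50 kept their sign in every fit. The exception was Itgb1bp2 in siErm against siCtrl, which ranged from -0.60 to 0.11 as arrays were left out, and the cause was not tested. The collagen median in siPea3 against siCtrl lay between -0.20 and 0.23 as arrays were left out, and the Itg median between -0.51 and 0.05, so neither has a settled sign. For the 18 kept probes detected on some arrays only, signals lie close to the noise.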
